A study of Mus musculus with 23 samples.

Results

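Yap1, Wwtr1, Tead1, Ctgf, Cyr61, Ankrd1 and Axl were followed in open chromatin of mouse 3T3-L1 preadipocytes over 3 days, with and without siRNA against Kdm5c. They were taken as the genes of the YAP and TEAD pathway that the authors' tables name at a peak, and all 7 had such a peak on days -2 and -1 and 6 of them on day 0, when Ctgf had none. These were 21 named peaks over the 3 days: 8 of 12268 named peaks on day -2, 7 of 9692 on day -1 and 6 of 10134 on day 0. The assay was ATAC-seq, in which a transposase cuts open DNA and inserts sequencing adapters, so a peak is a stretch of accessible chromatin. 3T3-L1 is an established mouse fibroblast line that can be turned into fat cells.

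All cells were sub-confluent when they were transfected on day -3 with 50 nM siRNA and Lipofectamine RNAiMAX, either a non-targeting control (called scramble here) or siRNA against Kdm5c, a histone demethylase. Nuclei were taken 24, 48 and 72 hours later, on days -2, -1 and 0. There were 4 libraries per arm and day, except 3 for Kdm5c siRNA on day 0, numbered 1, 2 and 4 in the labels. Whether replicates were separate cultures is not in the labels, so a p-value here speaks only of how these libraries vary, and that variation may be technical. They give no measure of cell density after transfection.

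YAP, encoded by Yap1, and TAZ, encoded by Wwtr1, are coactivators that cannot bind DNA themselves and act mostly through TEAD factors. When cells are spread and sparse they sit in the nucleus. In crowded cells the Hippo kinases phosphorylate them, and they are kept in the cytoplasm or degraded. In the 3T3-L1 line and other preadipocytes, TAZ is known to hold back the fat cell regulator PPARG. Ctgf (also Ccn2), Cyr61 (also Ccn1), Ankrd1 and Axl are standard targets of YAP and TEAD.

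The named peaks at or beside the starts of Ankrd1 and Cyr61 held fewer normalised counts on day 0 than on day -2 in both arms. The peak at Ctgf was not listed on day 0, and over all genes 11026 had a named peak on day -2 and 9366 on day 0. The peaks of Ankrd1 and Cyr61 were also narrower on day 0. Per base, with each day taken over its own peak width, neither gene was called lower. The starts of Wwtr1 and Tead1 gave no call between days, and that of Yap1 was called higher on day -1, where 1 wide peak stood in place of 2 separate ones. No tested named peak of the 7 genes was called between Kdm5c siRNA and scramble on any day. A peak without a gene name inside Wwtr1, singled out after its values were seen, fell to 4.63 to 8.25 normalised counts on day 0 in scramble. It then held 4 to 6 raw counts per scramble library. In scramble that fall was called per base as well, and with Kdm5c siRNA it was not.

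Promoter sequence was at hand for 5 of the 7 genes, Yap1, Wwtr1, Cyr61, Ankrd1 and Axl (RefSeq, GRCm38.p6). The letters GGAATG on either strand, the core of the site that TEAD factors bind, were found in the promoters of all 5. The search window ran from 250 bases before to 50 after each start. In the same window they were found in 14.6% of 32544 promoters, and in 11.2% of the 8019 promoters that overlapped a named peak of day -2. The 250 bases before each start are shown because these matches fall in or beside the peaks described here. They are 5′ to 3′ on the gene's strand, with each match in capitals (CATTCC is the same site on the opposite strand).
Yap1: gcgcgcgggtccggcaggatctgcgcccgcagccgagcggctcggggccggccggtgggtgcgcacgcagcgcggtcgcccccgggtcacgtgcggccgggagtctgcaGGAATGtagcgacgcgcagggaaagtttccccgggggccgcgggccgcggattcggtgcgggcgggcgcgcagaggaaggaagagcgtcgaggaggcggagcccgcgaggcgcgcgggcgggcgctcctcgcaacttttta
Wwtr1: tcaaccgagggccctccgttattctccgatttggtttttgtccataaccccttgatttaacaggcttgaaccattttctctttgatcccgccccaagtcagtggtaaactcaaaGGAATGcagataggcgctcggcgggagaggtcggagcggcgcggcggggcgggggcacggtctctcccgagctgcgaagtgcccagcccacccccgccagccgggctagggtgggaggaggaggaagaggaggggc
Cyr61: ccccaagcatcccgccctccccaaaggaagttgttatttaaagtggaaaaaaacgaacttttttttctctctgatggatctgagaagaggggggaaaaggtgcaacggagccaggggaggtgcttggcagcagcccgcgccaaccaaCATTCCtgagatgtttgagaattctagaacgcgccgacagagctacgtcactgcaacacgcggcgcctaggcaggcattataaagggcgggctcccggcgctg
Ankrd1: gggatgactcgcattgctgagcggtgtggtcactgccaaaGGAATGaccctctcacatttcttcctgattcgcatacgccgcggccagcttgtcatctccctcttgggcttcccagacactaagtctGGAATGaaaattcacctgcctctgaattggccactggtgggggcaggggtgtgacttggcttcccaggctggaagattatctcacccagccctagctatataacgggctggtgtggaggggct
Axl: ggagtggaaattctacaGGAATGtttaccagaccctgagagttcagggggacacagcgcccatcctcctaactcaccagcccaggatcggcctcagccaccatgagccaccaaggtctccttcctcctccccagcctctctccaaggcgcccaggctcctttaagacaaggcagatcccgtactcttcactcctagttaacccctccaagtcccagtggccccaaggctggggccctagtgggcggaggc
The match began 141 bases before the start at Yap1 (chr9:8004732-8004737), 136 at Wwtr1 (chr3:57576041-57576046) and 233 at Axl (chr7:25788961-25788966). Starts here are those of the promoter sequences. For Yap1 (position 8004596) and Axl (position 25788733) they lie inside the gene spans given below, not at their ends. Ankrd1, whose product is a cardiac ankyrin repeat protein of muscle and fibroblasts, had 2 matches, 210 and 123 bases before its start (chr19:36120049-36120054 and chr19:36119962-36119967). Of the 32544 promoters, 1.36% held 2 or more. These matches lay inside the named peak on all 3 days. The match of Cyr61, 103 bases before its start (chr3:145650083-145650088), crossed the edge of the day -2 peak and lay beyond the peaks of days -1 and 0. The AP-1 letters TGANTCA were in none of the 5 (7.79% of all promoters), nor was a CArG box, the site of serum response factor (1.64%). A match of letters is a description and shows no bound factor.

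Each day has its own list of peaks, and a level here is a normalised count: the raw count in the peak divided by the library's effective size and multiplied by the mean effective size of the 23 libraries. Counts in nuclear peaks ranged from 1816082 to 3345583 in the day -2 libraries, from 781309 to 1446979 in those of day -1 and from 1088968 to 2525925 in those of day 0, and mitochondrial peaks took 56.4% to 93.2% of all counts. There were 84019, 31970 and 37054 peaks on the 3 days. Day cannot be told apart from this depth, from handling or from the peak calls of each day, and fewer cells with an open site cannot be told apart from less opening per cell. The named peak of Kdm5c itself held 37 to 86 raw counts in scramble against 23 to 80 with the siRNA on day -2, 24 to 38 against 20 to 53 one day later, and 27 to 44 against 42 to 85 at the last. It gave no call (edgeR adjusted p = 0.98, 0.99 and 0.98), and accessibility does not measure a knockdown. Of 12 fibroblast and preadipocyte markers, 8, 7 and 7 had a named peak on days -2, -1 and 0, among them Col1a1, Pdgfrb and Vim. Of 5 mature adipocyte markers Lep alone had one, on days -2 and 0. None of 5 blood cell markers had one, and of 5 epithelial markers Krt8 alone did, on day -2. Of 5 endothelial markers Kdr had one on all 3 days and Cdh5 on day -2.

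Named peaks differ in width, so levels are set beside each other per kb. In scramble on day -2 the order was Ankrd1 with 96.1 ± 18.4 normalised counts per kb (SD, n = 4), Cyr61 77.6 ± 3.11, Wwtr1 73.5 ± 0.63, Yap1 60.5 ± 17.4, Tead1 54.4 ± 18.4, Axl 53.1 ± 20.1 and Ctgf 50.3 ± 14.1. Each gene's libraries overlapped those of the next in that order. Ankrd1 stood at the 81.7th percentile of all named peaks and Ctgf at the 27.2nd. The order leaves out a second, narrow named peak of Ankrd1 on day -2. That peak had 40.6 ± 14.7 per kb in scramble, below all those listed, and stood at the 13.8th percentile. In scramble on day 0 Cyr61 came first with 103 ± 51.8 per kb (n = 4) and Yap1 last with 51.1 ± 16.3, and again all neighbours overlapped. With Kdm5c siRNA on day -2 Ankrd1 also led, with 86.4 ± 6.83 per kb (n = 4), above all libraries of Cyr61 (75.01 ± 6.76).

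**Figure D1:**
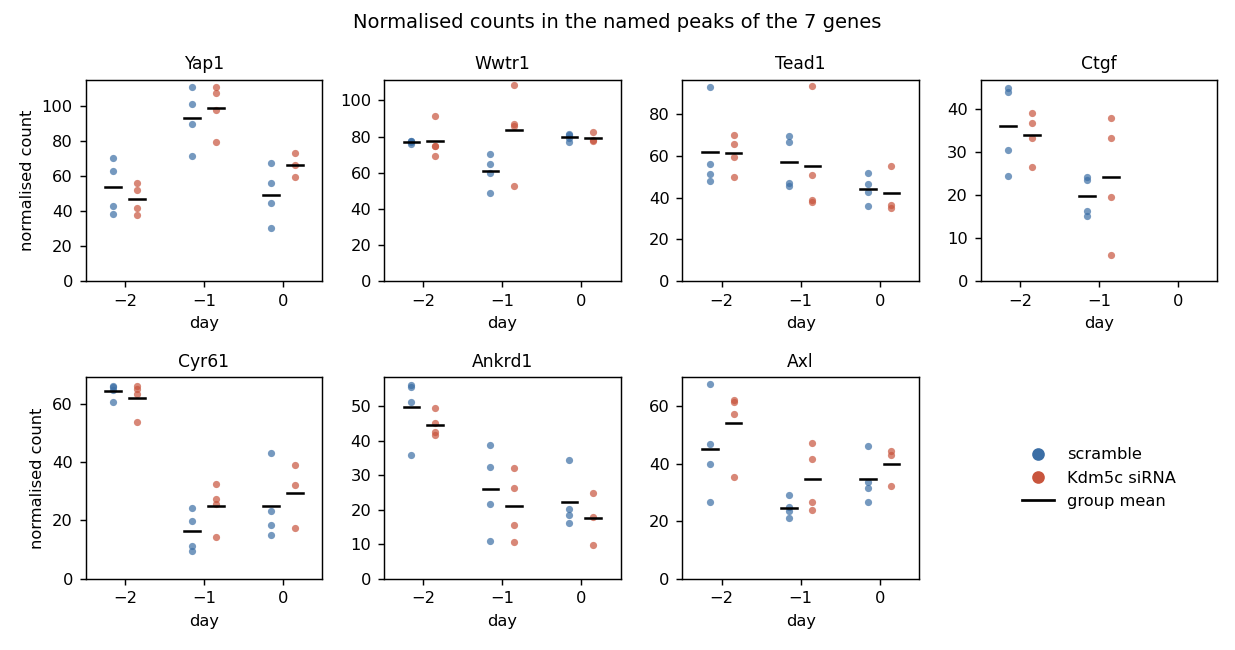
Normalised counts (y axis) in the named peak of each gene on days -2, -1 and 0 (x axis), with 1 point per library, scramble in blue, Kdm5c siRNA in red and the group mean as a black bar. Cyr61 and Ankrd1 are highest on day -2 in both arms, Yap1 is highest on day -1, and Ctgf has no point on day 0. The second Ankrd1 peak of day -2 is not drawn.

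Yap1 lies on chromosome 9 (chr9:7931999-8004638), and its named peak covered the start on each day: chr9:8004065-8004951 on day -2, chr9:8003397-8004887 on day -1 and chr9:8003940-8004907 on day 0. In scramble the day -2 libraries 1 to 4 had 43.0, 70.2, 63.0 and 38.3 normalised counts. On day -1 they had 111, 71.4, 101 and 89.4, and on day 0 they had 55.7, 67.1, 44.5 and 30.2. Every day -1 library lay above every library of days -2 and 0. The log2 fold change from day -2 to day -1 was 0.80 in scramble (SE 0.19, adjusted p = 0.0038) and 1.08 with Kdm5c siRNA (SE 0.19, adjusted p = 2.8e-05), by edgeR's quasi-likelihood test. From day -1 to day 0 it was -0.89 in scramble (SE 0.20, adjusted p = 0.0016) and -0.56 with Kdm5c siRNA (SE 0.20, adjusted p = 0.088).

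The rise at Yap1 went with a change in how the region was split into peaks. The day -1 peak was 1490 bp wide, 1.68 times the day -2 peak, a ratio at the 98.9th percentile of 8440 named peaks. It covered both the day -2 peak and a separate unnamed one beside it (chr9:8003342-8003992), and day 0 again had a pair (the other at chr9:8003417-8003890). Summed over these peaks, scramble had 91.4 ± 16.0 normalised counts on day -2, 93.2 ± 16.9 on day -1 and 70.7 ± 20.8 on day 0 (SD, n = 4 each). Kdm5c siRNA had 85.5 ± 1.09 (n = 4), 98.7 ± 14.1 (n = 4) and 90.8 ± 10.1 (n = 3). Over that whole region the library ranges of days -2 and -1 overlapped in both arms. In the fit with peak width as an offset, which compares counts per base, the day -1 change was -0.12 in scramble (SE 0.19, adjusted p = 0.80) and 0.15 with Kdm5c siRNA (SE 0.19, adjusted p = 0.73).

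Wwtr1 (chr3:57455644-57575910) gave no call between days at its start. Its named peak lay at chr3:57575587-57576633 on day -2, chr3:57575631-57576558 on day -1 and chr3:57575523-57576627 on day 0. Scramble libraries 1 to 4 had 76.8, 77.3, 77.5 and 76.0 normalised counts on day -2. On day -1 they had 48.5, 70.2, 59.6 and 64.7, and on day 0 they had 79.0, 80.9, 81.3 and 77.0. The day -1 libraries all lay below the others, yet the change from day -2 was -0.34 (SE 0.18, adjusted p = 0.28) and was not called. With Kdm5c siRNA it was 0.12 (SE 0.17, adjusted p = 0.73), and from day -2 to day 0 it was 0.05 (SE 0.17, adjusted p = 0.88) in scramble and 0.04 (SE 0.17, adjusted p = 0.93) with Kdm5c siRNA.

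Tead1, the TEAD family member among the 7, spans chr7:112679356-112906784, and its named peak overlapped the lower end of that span. The peak was 1143 bp wide on day -2 (chr7:112678927-112680070), 1078 bp on day -1 and 740 bp on day 0 (chr7:112678888-112679628), when a second, unnamed peak of 211 bp stood beside it. Scramble libraries had 93.2, 47.8, 56.2 and 51.3 normalised counts on day -2 and 46.4, 35.8, 52.1 and 42.6 on day 0. These groups overlapped, and the log2 fold change was -0.48 (SE 0.22, adjusted p = 0.12). With Kdm5c siRNA it was -0.59 (SE 0.23, adjusted p = 0.067). Leaving out the Kdm5c siRNA library 1 of day 0 made the latter -0.78 with an adjusted p of 0.034. Scaling by the sums of the matched nuclear peaks also gave calls, of -0.59 (adjusted p = 0.043) in scramble and -0.66 (adjusted p = 0.036) with Kdm5c siRNA. Scaled by all nuclear peaks of each day instead, mean counts went from 54.2 on day -2 to 48.3 on day 0 in scramble. With Kdm5c siRNA they went from 52.4 to 47.6, and that scaling was not tested between days. Counts per base changed by 0.04 (SE 0.22, adjusted p = 0.93) and -0.07 (SE 0.23, adjusted p = 0.90).

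Of the 4 targets, Ankrd1 (chr19:36111965-36119844) was the one whose named peak could be matched on all 3 days by a reciprocal overlap of 50%. It covered the start (position 36119844) on day -2, at chr19:36119757-36120273. On days -1 and 0 it lay just upstream, at chr19:36119849-36120160 and chr19:36119861-36120213, and did not reach the start. Scramble libraries 1 to 4 had 51.2, 55.9, 55.5 and 35.7 normalised counts on day -2. On day -1 they had 32.3, 38.7, 21.7 and 11.005, and on day 0 they had 16.3, 18.5, 20.3 and 34.4. Every day 0 library lay below every day -2 library, while days -2 and -1 overlapped by 1 library on each side. Kdm5c siRNA libraries had 45.0, 41.5, 49.4 and 42.5 on day -2. Those of day -1 had 15.6, 10.5, 26.1 and 32.2, and those of day 0 had 9.70, 18.0 and 24.9, with no overlap between day -2 and either later day.

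The Ankrd1 peak fell from day -2 to day 0 by a log2 fold change of -1.15 in scramble (SE 0.29, adjusted p = 0.0015) and -1.245 with Kdm5c siRNA (SE 0.30, adjusted p = 0.0018). From day -2 to day -1 it fell by -0.89 (SE 0.28, adjusted p = 0.039) and -1.02 (SE 0.29, adjusted p = 0.016), and from day -1 to day 0 the values were -0.26 (SE 0.32, adjusted p = 0.70) and -0.22 (SE 0.34, adjusted p = 0.80). The peak was 516 bp wide on day -2, 311 bp on day -1 and 352 bp on day 0. Per base the day 0 change was -0.71 in scramble (SE 0.29, adjusted p = 0.091) and -0.80 with Kdm5c siRNA (SE 0.30, adjusted p = 0.10), so the direction was kept and the call was lost. The day -1 call in scramble was also lost with DESeq2 (-0.90, adjusted p = 0.051). It was lost without any of the scramble libraries 1, 2 and 3 of day -2 and 3 and 4 of day -1, where the change was -0.88 to -0.63. That of Kdm5c siRNA was lost without library 1 (-0.89, adjusted p = 0.066) or 2 (-0.82, adjusted p = 0.089) of day -1. A second named peak of Ankrd1 on day -2 (chr19:36119522-36119673) held 4 to 14 raw counts per library and was not tested.

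Cyr61, a secreted matrix protein of the CCN family, spans chr3:145646971-145649985. Its named peak was 827 bp wide on day -2 (chr3:145649259-145650086), 152 bp on day -1 (chr3:145649814-145649966) and 243 bp on day 0 (chr3:145649827-145650070). It covered the start (position 145649985) on days -2 and 0, and on day -1 it ended just inside the gene. Scramble libraries 1 to 4 had 65.5, 66.1, 64.6 and 60.4 normalised counts on day -2. Those of day -1 had 11.2, 24.2, 19.9 and 9.63, and those of day 0 had 18.6, 15.0, 43.2 and 23.4. Kdm5c siRNA libraries had 65.0, 66.0, 53.8 and 63.3 on day -2. Those of day -1 had 32.5, 25.5, 14.4 and 27.5, and those of day 0 had 38.8, 32.2 and 17.5. In both arms every library of the later days lay below every library of day -2. Its width ratio to day -2, 0.184 on day -1 and 0.294 on day 0, stood at the 0.0948th and 0.794th percentiles of 8440 named peaks, whose median ratios were 0.864 and 0.923.

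Because such unequal widths miss a 50% overlap, Cyr61 and Axl were tested in a fit on 19518 peaks that overlap at all on the 3 days, chosen after the data were seen. There Cyr61 fell from day -2 to day -1 by -1.91 in scramble (SE 0.28, adjusted p = 7.1e-08) and -1.23 with Kdm5c siRNA (SE 0.26, adjusted p = 0.00016), and to day 0 by -1.29 (SE 0.26, adjusted p = 2.7e-05) and -1.07 (SE 0.27, adjusted p = 0.00104). Without the Kdm5c siRNA library 4 of day 0 the last value was -0.74, with an adjusted p of 0.071. Per base the direction turned in all 4 of these comparisons. The day -1 change was 0.23 in scramble (SE 0.30, adjusted p = 0.72) and 0.91 with Kdm5c siRNA (SE 0.27, adjusted p = 0.028), and the day 0 changes were 0.26 (SE 0.26, adjusted p = 0.59) and 0.47 (SE 0.27, adjusted p = 0.33). So the named peak of Cyr61 was narrower on the later days, and its counts per base were not called lower. Counts per base are taken over each day's own peak, so a narrow peak is set against a wider one. This fit therefore cannot tell whether the same bases kept their density.

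Axl, a receptor tyrosine kinase, spans chr7:25756500-25788924, with its named peak at chr7:25788494-25789344 on day -2, chr7:25788670-25789016 on day -1 and chr7:25788479-25788992 on day 0. Scramble libraries had 67.6, 39.7, 26.6 and 46.8 normalised counts on day -2. Those of day -1 had 21.1, 29.0, 23.5 and 24.8, and those of day 0 had 33.7, 46.3, 26.7 and 31.6. The day -1 group overlapped day -2 through the lowest day -2 library. In the any-overlap fit the day -1 change was -0.79 in scramble (SE 0.27, adjusted p = 0.034) and -0.56 with Kdm5c siRNA (SE 0.24, adjusted p = 0.11). Per base these were 0.22 (SE 0.27, adjusted p = 0.71) and 0.44 (SE 0.25, adjusted p = 0.32). With DESeq2 the call in scramble was lost (-0.78, adjusted p = 0.051). It was lost too without library 1 or 4 of day -2 or library 1, 3 or 4 of day -1, where the change was -0.77 to -0.55. That with Kdm5c siRNA became a call without library 3 of day -2 (-0.73, adjusted p = 0.039). From day -2 to day 0 the values were -0.29 (SE 0.25, adjusted p = 0.41) and -0.36 (SE 0.25, adjusted p = 0.31).

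Ctgf, a secreted CCN protein of wound repair and fibrosis, spans chr10:24595442-24598683. Its named peak lay at the lower end of that span, at chr10:24595305-24596019 on day -2 and chr10:24595361-24595840 on day -1. Scramble libraries had 44.0, 24.4, 44.8 and 30.5 normalised counts on day -2 and 16.2, 24.2, 23.5 and 15.1 on day -1. The scramble groups did not overlap, by a narrow margin. With Kdm5c siRNA they were 39.0, 33.3, 36.7 and 26.4 on day -2 and 19.5, 6.003, 37.9 and 33.1 on day -1, which overlapped. In a fit on 24532 peaks of these 2 days, also chosen after the data were seen, the change was -0.75 in scramble (SE 0.31, adjusted p = 0.087) and -0.34 with Kdm5c siRNA (SE 0.29, adjusted p = 0.48), and neither was called. No peak was listed on day 0 within 10 kb of Ctgf, so day 0 has no count to compare.

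**Figure D2:**
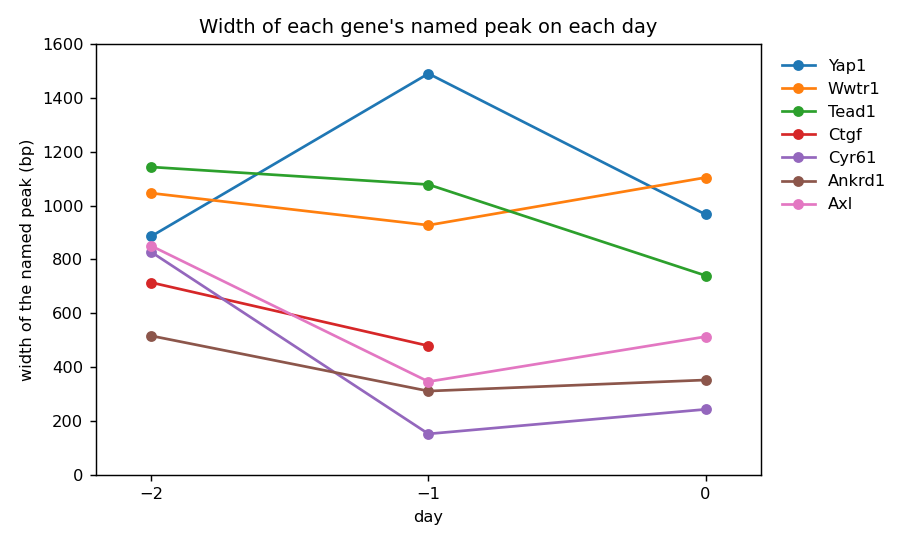
Width in base pairs (y axis) of the named peak of each gene on days -2, -1 and 0 (x axis), as the deposited peak lists give it, with 1 value per gene and day. The peak of Yap1 widens to 1490 bp on day -1, and those of all the other genes are narrower on day -1 than on day -2. Over 8440 named peaks the median ratio of day -1 to day -2 was 0.864.

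**Figure D3:**
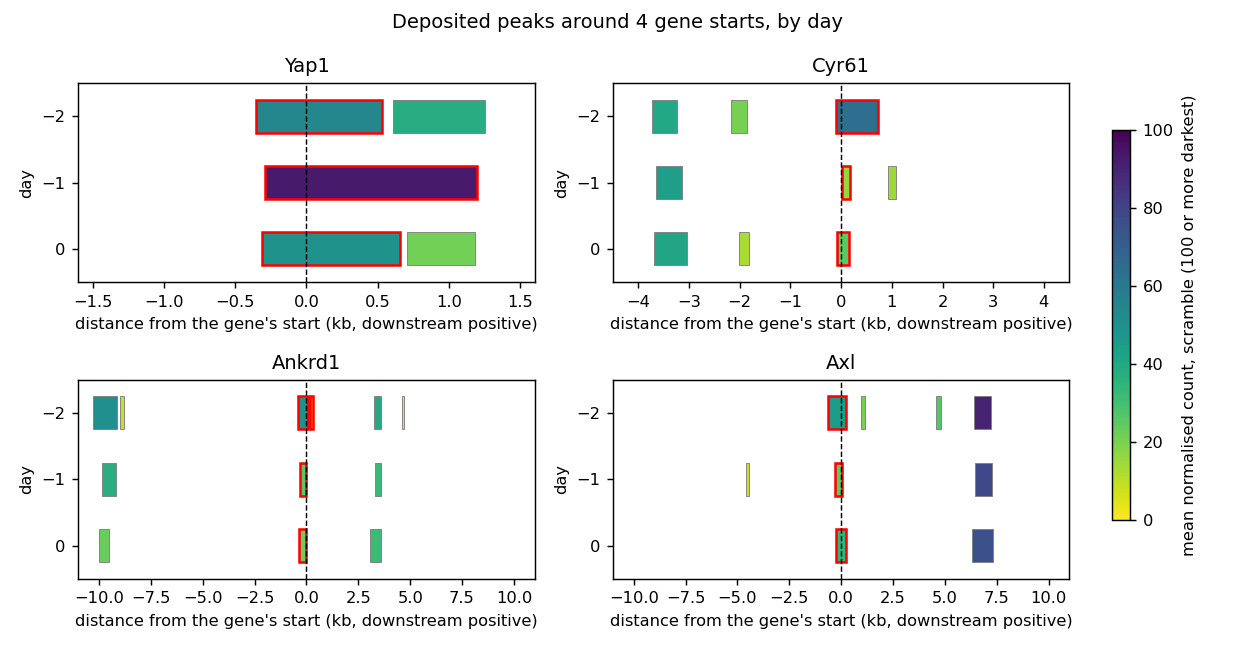
Deposited peaks around the starts of Yap1, Cyr61, Ankrd1 and Axl, by day (y axis) and by distance from the start in kb (x axis, to scale). Bars are peaks, coloured by the mean normalised count of the scramble libraries, and named peaks have a red edge. The Yap1 peak of day -1 spans both peaks of the other days, and the named Cyr61 peak is narrower on days -1 and 0. Of the pair of peaks upstream of Cyr61 on day -2, the nearer is missing on day -1 and narrower on day 0, and the farther is present on all days.

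Read against all peaks, calls between days were common. Of the 13674 peaks tested with a 50% match, scramble called 5.73% from day -2 to day -1, 6.86% from day -1 to day 0 and 20.6% from day -2 to day 0. Kdm5c siRNA called 6.37%, 3.79% and 15.0%. Of the 4 members in that fit (Yap1, Wwtr1, Tead1 and Ankrd1), 2, 1 and 1 were called in scramble and 2, 0 and 1 with Kdm5c siRNA. In the any-overlap fit of 19515 tested peaks the shares were 13.5%, 15.1% and 30.9% in scramble and 14.5%, 11.7% and 25.2% with Kdm5c siRNA. Of the days -2 and -1 pair of peak lists, 15.8% were called in scramble and 15.8% with Kdm5c siRNA. The 3 contrasts between days share libraries and are not independent of each other. With 4 members, shares of 1 or 2 say little about the set beside these backgrounds. With the width offset no member of the 50% match was called in any of the 6 comparisons.

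**Figure D4:**
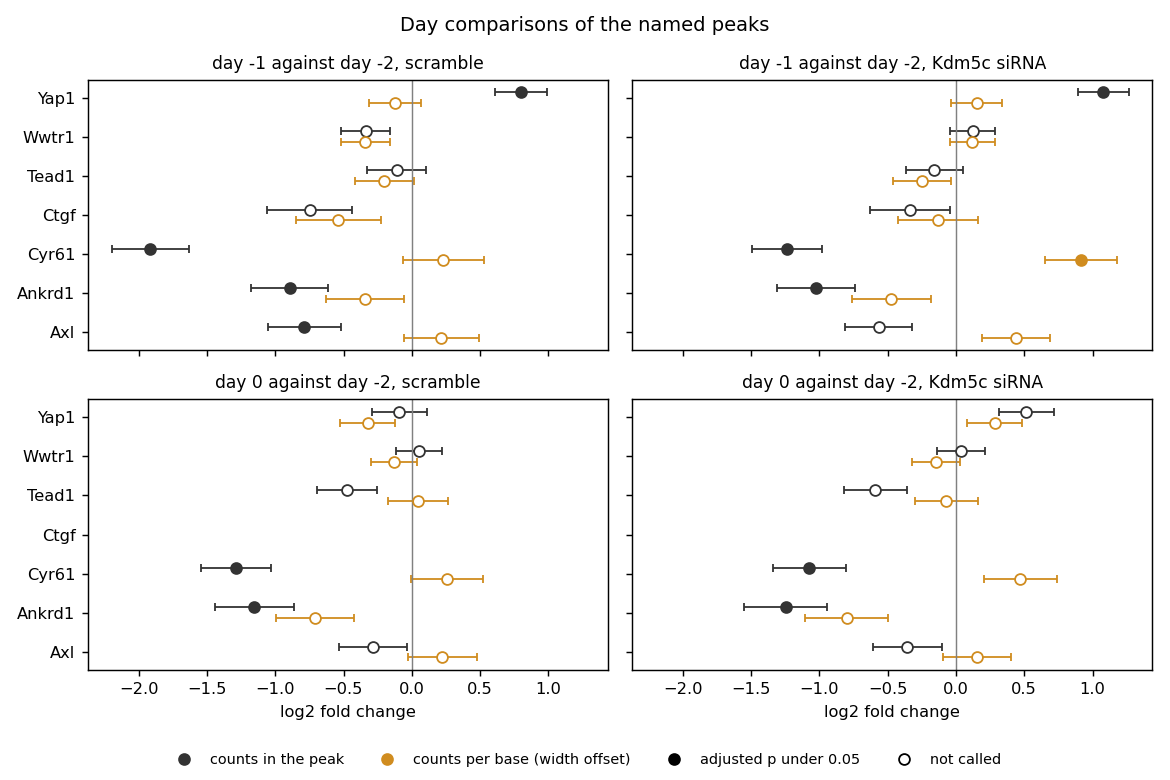
Log2 fold changes (x axis, with SE as bars) of the named peaks of the 7 genes (y axis) from day -2 to day -1 (upper row) and to day 0 (lower row), in scramble and Kdm5c siRNA, as counts in the peak (dark) and as counts per base (orange). Filled points are called at an adjusted p under 0.05. Cyr61 lies far left by counts and right of 0 per base, and Ankrd1 stays left of 0 by both. Ctgf has no value on day 0.

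With the named peaks included, the gene spans and 10 kb on each side held 41, 18 and 25 peaks on days -2, -1 and 0. Tead1, the longest of the 7 genes, had 12, 3 and 7 of them, its named peak included. Over all 7 loci, 32, 10 and 18 peaks had no gene name. Leaving aside a peak at the neighbour Hnrnpul1, 4 peaks without a gene name could be matched on all 3 days at 50%. They lay inside Wwtr1, Ankrd1 and Axl and upstream of Cyr61.

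The peak inside Wwtr1 was singled out after its values were seen. It lay at chr3:57501619-57502157 on day -2, chr3:57501534-57502053 on day -1 and chr3:57501697-57501979 on day 0. Scramble libraries 1 to 4 had 32.8, 57.0, 34.9 and 25.3 normalised counts on day -2. Those of day -1 had 31.1, 43.6, 38.0 and 20.6, and those of day 0 had 5.81, 4.63, 6.35 and 8.25. Kdm5c siRNA libraries had 56.0, 54.1, 41.2 and 27.4, then 22.1, 28.5, 22.2 and 34.1, then 4.16, 21.8 and 11.9. Every scramble library of day 0 lay below every one of the earlier days, at 4 to 6 raw counts. With Kdm5c siRNA the day 0 libraries also lay below all of the earlier ones. The start peak of the same gene gave no call between days.

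From day -2 to day 0 the peak inside Wwtr1 fell by -2.55 in scramble (SE 0.38, adjusted p = 4.9e-08) and -1.76 with Kdm5c siRNA (SE 0.33, adjusted p = 4e-05). From day -1 to day 0 it fell by -2.40 in scramble (SE 0.40, adjusted p = 9.2e-06), while with Kdm5c siRNA the value was -1.03 (SE 0.36, adjusted p = 0.085). The latter became a call of -1.55 (adjusted p = 0.032) without library 2 of day 0. The peak was 538, 519 and 282 bp wide on the 3 days. Per base the scramble changes to day 0 were -1.74 from day -2 (SE 0.39, adjusted p = 0.00064) and -1.47 from day -1 (SE 0.41, adjusted p = 0.018) and were still called, whereas with Kdm5c siRNA the change from day -2 was -0.94 (SE 0.34, adjusted p = 0.077) and that from day -1 was -0.09 (SE 0.36, adjusted p = 0.94). The difference of the siRNA effect between days 0 and -1 was 1.37 (SE 0.55) at an adjusted p of 0.89, so the arms were not shown to differ in this fall.

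The other 3 unnamed peaks gave no call by counts. From day -2 to day 0, 20.6% of all matched peaks were called in scramble and 15.0% with Kdm5c siRNA. The farther peak upstream of Cyr61 (chr3:145653223-145653711 on day -2) had 39.9 ± 5.55, 43.8 ± 14.3 and 41.1 ± 8.66 normalised counts in scramble on the 3 days (SD, n = 4), while the named peak of Cyr61 went from 64.2 ± 2.57 to 16.2 ± 6.97 and 25.04 ± 12.6. The peak inside Ankrd1 (chr19:36116247-36116606) had 39.1 ± 14.7, 32.8 ± 17.99 and 31.7 ± 2.27. The peak inside Axl (chr7:25781515-25782332) had the most counts of the 3, with 90.6 ± 13.8, 78.5 ± 9.29 and 75.7 ± 11.9. The width offset called 3 of the 18 values, all lower per base on day 0, when the peaks were wider, than on day -2. They were inside Ankrd1 in scramble (-1.04, SE 0.27) and inside Axl in scramble (-0.68, SE 0.16) and with Kdm5c siRNA (-0.69, SE 0.18). The closing section gives the calls of this setting over all peaks. With so few peaks, these calls say little about the loci.

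**Figure D5:**
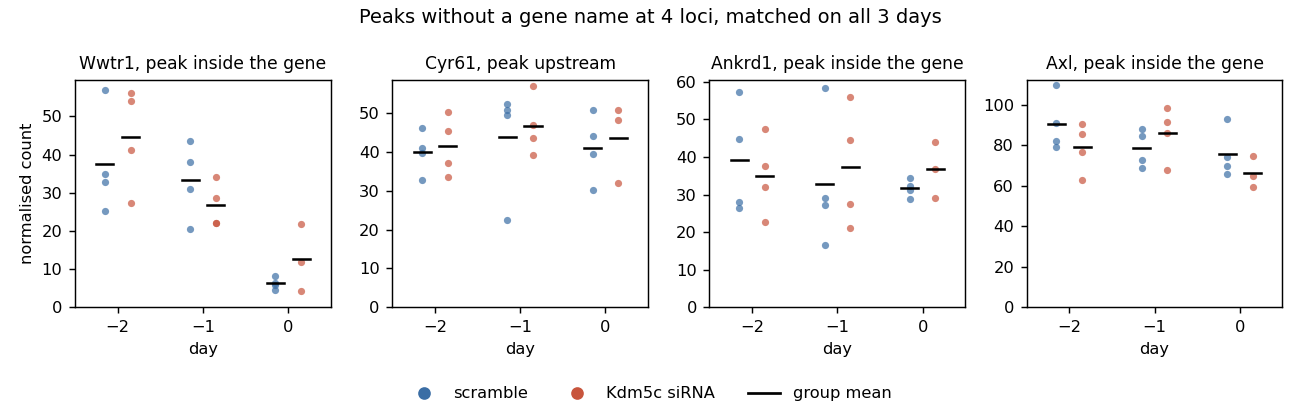
Normalised counts (y axis) on days -2, -1 and 0 (x axis) in the 4 peaks without a gene name that were matched on all days at the loci of Wwtr1, Cyr61, Ankrd1 and Axl, with 1 point per library and the group mean as a bar. The peak inside Wwtr1 falls to 4.63 to 8.25 in the scramble libraries of day 0, and the other 3 overlap between days.

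Kdm5c siRNA was compared with scramble within each day to ask whether targeting the demethylase alters these sites. The share of all peaks called was 0.00404% on day -2 (2 of 49455), 0.0% on day -1 (0 of 23304, with 1253 at an unadjusted p under 0.05) and 0.00352% on day 0 (1 of 28398). None of the 20 tested member peaks was called by edgeR or by DESeq2, and 2 had an unadjusted p under 0.05. In all 21 named peaks the arms overlapped. The share over all named peaks was not counted, so this is no result about these genes. The lowest p belonged to Wwtr1 on day -1, where Kdm5c siRNA libraries had 85.9, 52.5, 108 and 87.1 normalised counts against 48.5 to 70.2 in scramble. Its log2 fold change was 0.46 (SE 0.20, adjusted p = 0.86). Yap1 on day 0 had 59.6, 66.2 and 72.9 with Kdm5c siRNA against 30.2 to 67.1 in scramble, a change of 0.44 (SE 0.21, adjusted p = 0.82).

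The other arm differences were not called either. On day -2 they ran from -0.21 (Yap1, SE 0.20) to 0.25 (Axl, SE 0.21), with Wwtr1 at -0.01 (SE 0.16) and Cyr61 at -0.07 (SE 0.18). On day -1 the narrow Cyr61 peak had 0.62 (SE 0.39, adjusted p = 0.93), Axl 0.48 (SE 0.31, adjusted p = 0.93), Ctgf 0.32 (SE 0.38) and Ankrd1 -0.28 (SE 0.36). On day 0 Cyr61 had 0.19 (SE 0.33), Axl 0.21 (SE 0.27) and Ankrd1 -0.25 (SE 0.38). Among all tested peaks of the 7 loci, 31, 17 and 21 on the 3 days, none was called and 1 per day had an unadjusted p under 0.05. Across all peaks that share was 4.63%, 5.38% and 5.99%. A p above the threshold does not show that the arms were alike, and the SE was 0.31 to 0.39 at the 4 targets on day -1.

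Whether the siRNA effect itself changed between days was tested as an interaction in the fit of matched peaks. edgeR called 0.0% of 13674 peaks for day -1 against -2, 0.0% for day 0 against -1 and 0.0% for day 0 against -2, with 673, 712 and 875 peaks at an unadjusted p under 0.05, and DESeq2 also called 0. Among the members Yap1 had the lowest p, with a difference of 0.61 between days 0 and -2 (SE 0.29, adjusted p = 0.75).

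The rest of the pathway was followed with 72 other genes in 4 lists, of which 36 were tested between days and some stand in more than 1 list. These lists were chosen with earlier results of these data known. Among the 7 TEAD and VGLL partners 2 were tested, and 0 were called by counts in any of the 6 day comparisons. The width offset called 1 in scramble (day 0 against -2) and 1 with Kdm5c siRNA (day -1 against -2). Over all 4 lists it called 1, 3 and 4 genes in scramble and 3, 1 and 4 with Kdm5c siRNA. These are in the order day -1 against -2, 0 against -1 and 0 against -2. Genes called only by the offset are not named here. For some comparisons the closing section gives its calls over all peaks. The Hippo kinase core was thinly covered, since only Mob1b and Sav1 of its 7 genes had a named peak. Mob1b, a coactivator of the LATS kinases, rose from day -2 to day 0 with Kdm5c siRNA by 0.47 (SE 0.13, adjusted p = 0.0077; 0.18 per base, adjusted p = 0.47), and this was the 1 call in that list. Of 27 upstream regulators 16 were tested between days. From day -2 to day 0 in scramble 2 rose and 0 fell, with a list median of 0.12 against 0.02 over all peaks. With Kdm5c siRNA 1 rose and 0 fell, with a median of 0.02. Of all matched peaks 9.16% rose and 11.5% fell in scramble, and 7.27% rose and 7.69% fell with Kdm5c siRNA, so these counts are near the background.

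Fat1, a giant protocadherin that feeds into Hippo signalling, led the upstream regulators. Its peak rose from day -2 to day -1 by 1.2395 in scramble (SE 0.16) and 1.53 with Kdm5c siRNA (SE 0.15), and from day -2 to day 0 by 1.49 (SE 0.15) and 1.64 (SE 0.16). It widened from 645 bp to 1217 and 1221 bp. Per base the day -1 changes were 0.15 (adjusted p = 0.67) and 0.44 (adjusted p = 0.088) and were not called, while the day 0 changes of 0.46 (adjusted p = 0.031) and 0.61 (adjusted p = 0.0069) were still called. Its relative Fat4 rose to day 0 in scramble by 0.68 (SE 0.18, adjusted p = 0.0026), and 0.09 per base (adjusted p = 0.81). Nf2, the tumour suppressor Merlin that activates the LATS kinases, fell to day -1 with Kdm5c siRNA by -0.82 (SE 0.22, adjusted p = 0.011), and -0.28 per base (adjusted p = 0.54). Amotl2, an angiomotin that binds YAP and is also its target, rose from day -1 to day 0 in scramble by 0.59 (SE 0.18, adjusted p = 0.032), and 0.50 per base (adjusted p = 0.091), which was not called.

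Of 34 other YAP and TEAD targets 18 were tested between days. From day -2 to day 0, 1 rose and 1 fell in each arm, with list medians of 0.14 in scramble and 0.03 with Kdm5c siRNA. Beside the same shares of all matched peaks, 1 of 18 in either direction is no result about the list. The one that rose was Ccdc80, a secreted protein of adipose tissue, by 1.03 (SE 0.28, adjusted p = 0.0039) in scramble and 0.85 (SE 0.28, adjusted p = 0.025) with Kdm5c siRNA, while its peak widened from 458 to 639 bp (0.45 and 0.27 per base, adjusted p = 0.32 and 0.65). The one that fell was Nppb, the natriuretic peptide BNP, by -0.86 (SE 0.29, adjusted p = 0.022) in scramble and -1.76 (SE 0.32, adjusted p = 1.8e-05) with Kdm5c siRNA. From day -1 to day 0 with Kdm5c siRNA it fell by -1.46 (SE 0.34, adjusted p = 0.0042; -0.78 per base, adjusted p = 0.25). Its peak narrowed from 523 to 281 bp, and per base the changes from day -2 to day 0 were -0.08 (adjusted p = 0.91) and -0.98 (adjusted p = 0.052). Arhgef17, a RhoA exchange factor, rose to day -1 in scramble by 0.63 (SE 0.18, adjusted p = 0.016) and fell again to day 0 by -0.57 (SE 0.18, adjusted p = 0.038). Its peak was 879, 1138 and 790 bp wide, and per base neither was called, at 0.08 (adjusted p = 0.86) and 0.03 (adjusted p = 0.96).

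No gene of the 4 lists was called between arms by edgeR on any day. The smallest p-values on day -2 were those of Vgll4, a competitor of YAP for TEAD (0.76, SE 0.27), Strn4 (-0.47, SE 0.20) and Tead2 (-0.50, SE 0.27). On day -1 they were those of Nuak2 (0.68, SE 0.28), Asap1 (0.37, SE 0.17) and Taok3 (0.38, SE 0.17), and on day 0 of Taok2 (-0.54, SE 0.22), Map4k4 (-0.37, SE 0.19) and Mob4 (-0.35, SE 0.18). All had an adjusted p of 0.71 or more. No list gene was called for a change of the siRNA effect between days. Nppb (-0.90, SE 0.44), Amotl2 (-0.68, SE 0.25) and Strn (-0.40, SE 0.19) had the smallest p-values between days 0 and -2. Between days 0 and -1 they were those of Amotl2 (-0.83, SE 0.26), Nppb (-1.29, SE 0.47) and Mob4 (-0.50, SE 0.26), and between days -1 and -2 those of Arhgef17 (-0.58, SE 0.25), Nf2 (-0.66, SE 0.31) and Taok3 (0.42, SE 0.22).

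The named peaks whose levels ran most like those of the members were taken over the 23 libraries, among 6978 peaks, as Pearson's r of log2(normalised count + 1). These libraries share depth, day and arm, so r is a description. For Yap1 they were Fas (0.77), Samd4 (0.75) and Afap1 (0.72), and for Wwtr1 Zbed4 (0.73), Nectin2 (0.72) and Nadk2 (0.72). For Tead1 they were Dclre1a (0.75), Gltp (0.73) and H6pd (0.70), and for Ankrd1 Abhd1 (0.79), Lpin2 (0.75) and Dtnb (0.74). None of Yap1, Wwtr1, Tead1 and Ankrd1 was among the 3 most alike of another. Cyr61, Axl and Ctgf had no named peak in the fit of matched peaks and were not compared. Their likeness to the other members is therefore not known.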

How the data were processed

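The deposited tables hold raw counts per peak for each library and, beside them, normalised values (a signal: the authors' counts divided by size factors), with 1 peak list per day. Per the submitters' processing notes the tools included DESeq2 1.24.0, HTSeq 0.9.1, MACS2 2.1.1, Bowtie2 2.2.9 and cutadapt 2.3, with GRCm38/mm10. The sources used here do not give their roles, any pooling for peak calls or the base that coordinates count from. Total counts were 4474964 to 14913397 per library. Most of these lay in mitochondrial peaks, so the totals do not set the counting error of the gene peaks. Levels here are counts scaled by TMM on matched peaks to a mean effective size of 9745311.

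Raw counts were tested with edgeR 4.0.16 in R 4.3.3 (filterByExpr, TMM, quasi-likelihood test), and called at an adjusted p (Benjamini-Hochberg over all tested peaks) under 0.05. Arms were compared within each day. Days and interactions were fitted over 23 libraries on 13675 peaks matched 1 to 1 at 50% reciprocal overlap (bedtools 2.31.1). The width offset is the log peak width centred per library. DESeq2 1.42.0 was an alternative, and the others stand in the closing section. All members were named. Of the list genes, those called by counts were named, or the 3 with the lowest p where none was. Members and lists were chosen with earlier results of these data known. The fits were tested on simulated data.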

Additional observations from a re-analysis of the deposited data

How the results depend on the processing

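The number of peaks called between arms on day -2 was 1 with RLE factors, 0 with DESeq2, 5 with a replicate block and 1 without mitochondrial peaks. On day -1 it was 1 with the replicate block. On day 0 it was 2 with RLE factors, 2 with nuclear sum scaling, 6 with no low count filter, 0 with DESeq2, 0 with the replicate block and 2 without mitochondrial peaks. Leaving out 1 library gave 2 to 11 on day -2 and 0 to 10 on day 0.

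In the order day -1 against -2, 0 against -1 and 0 against -2, the 80% overlap called 63, 96 and 424 peaks in scramble and 72, 17 and 292 with Kdm5c siRNA, since far fewer peaks (4013) were matched. The width offset called 1668 in scramble for day 0 against -2, and 421, 241 and 782 with Kdm5c siRNA. Between days, nuclear sum scaling used the sums of the matched nuclear peaks. For the siRNA effect on day 0 against -2, it called 1 peak and the 80% overlap 1. Leaving out 1 library gave 511 to 833, 601 to 994 in scramble, and 546 to 904, 252 to 546 and 1318 to 2094 with Kdm5c siRNA, and interactions of 0 to 2 for day -1 against -2 and 0 to 7 for day 0 against -2. The cause was not tested.

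Called members are counted here among Yap1, Wwtr1, Tead1 and Ankrd1, so the call of Cyr61 per base given above is left out. Called members were 0 with the width offset in all 3 scramble comparisons and in day -1 and day 0 against -2 with Kdm5c siRNA. They were 1 with DESeq2 for day -1 against -2 in scramble, and 2 with nuclear sum scaling for day 0 against -2 in each arm. Without 1 library they were 1 to 2 for day -1 against -2 in each arm and for day 0 against -2 with Kdm5c siRNA. At the 80% overlap Wwtr1 was the 1 named member matched.

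Values whose sign turned were mostly near 0. Between arms, Wwtr1 on day -2 was 0.0012 without mitochondrial peaks, and Tead1 0.0074. With the replicate block Tead1 was 0.019 on day -2 and 0.014 on day 0. Wwtr1 on day 0 against -2 was -0.062 in scramble and -0.030 with Kdm5c siRNA under nuclear sum scaling, and -0.064 and -0.057 at the 80% overlap. With the width offset it was -0.13 and -0.15. The offset also turned Yap1 (-0.12 for day -1 against -2 in scramble, 0.13 for day 0 against -1 with Kdm5c siRNA) and Tead1 (0.25 and 0.18 for day 0 against -1, 0.044 for day 0 against -2 in scramble). It turned Cyr61 in scramble (0.23 for day -1, 0.26 for day 0 against -2) and with Kdm5c siRNA (0.91, 0.47, and -0.44 for day 0 against -1). It turned Axl in scramble (0.22, 0.22) and with Kdm5c siRNA (0.44, 0.15, and -0.29 for day 0 against -1).

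Leaving out 1 library turned these signs. Between arms on day -2 Ctgf ran from -0.25 to 0.038, Tead1 from -0.12 to 0.21 and Wwtr1 from -0.12 to 0.029. On day -1 Tead1 ran from -0.40 to 0.10 and Yap1 from -0.029 to 0.19. On day 0 Ankrd1 ran from -0.62 to 0.016, Cyr61 from -0.023 to 0.59, Tead1 from -0.28 to 0.015 and Wwtr1 from -0.028 to 0.024. In scramble, day -1 against -2, Tead1 ran from -0.22 to 0.13 and the peak inside Wwtr1 from -0.31 to 0.11, and Yap1 on day 0 against -2 from -0.27 to 0.074. With Kdm5c siRNA Wwtr1 ran from -0.013 to 0.28 (day -1 against -2), -0.24 to 0.050 (0 against -1) and -0.0094 to 0.12 (0 against -2). Ankrd1 ran from -0.60 to 0.083 and Cyr61 from -0.060 to 0.50 on day 0 against -1. Of 1632 member values under alternatives, 1548 kept direction and side of the threshold. Of 42 mean levels of the named peaks, 12 moved by their SD or more when scaled by all nuclear peaks of the day.

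Same-numbered libraries correlated at -0.039 to 0.151 over 11 pairs, and 4 correlated best with their own number. Low correlations cannot tell whether same-numbered libraries shared a culture or batch, and the labels do not say. Under the replicate block 771, 969 and 2781 peaks were called in scramble, 880, 453 and 1969 with Kdm5c siRNA, and 0 interactions. Fits without mitochondrial peaks and by any overlap were chosen after seeing the data. Low counts in narrow peaks, down to 3 per library, limit the precision.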
